A study of Mus musculus with 4 samples.

Results

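The sirtuins are the NAD-dependent (class III) protein deacylases, and the 7 mouse genes of the family, Sirt1 to Sirt7, were taken from the deposited count table by gene name. All 7 of 7 were found among the 56350 genes of the table, and all 7 passed the filter on low counts that left 14455 genes to test. The libraries come from EO771, a mammary carcinoma cell line of C57BL/6 mice. There were 4 libraries of total RNA, 2 labelled untreated (titled WT, while the treatment text speaks of vehicle) and 2 labelled BML-210, at 1.0 µM for 48 h. BML-210 inhibits the zinc-dependent histone deacetylases (HDACs), whereas sirtuins use NAD and no catalytic zinc, and the compound is not known to target them. The comparison therefore asks whether the messages of the other deacetylase family differ between cells cultured with and without the inhibitor. Nothing in the labels says that the 2 libraries of a group came from separate cultures, so the p-values measure the spread between these libraries, which may be technical. Changes are given on the log2 scale as BML-210 over untreated, so every direction rests on the group labels. The library names carry the letter D for untreated and V for BML-210. If these letters stood for drug and vehicle, the groups would be exchanged and every direction would turn; the labels do not settle this.

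Sirtuins couple the removal of acyl groups from lysines to the splitting of NAD, which releases nicotinamide, so their activity follows the cell's NAD supply. SIRT1, SIRT6 and SIRT7 act mainly in the nucleus, SIRT2 mainly in the cytosol, and SIRT3, SIRT4 and SIRT5 in mitochondria. In tumour cells they are known for opposing roles, from inactivation of p53 by SIRT1 to restraint of glycolysis by SIRT6 and of glutamine use by SIRT4.

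Sirt1 rose, Sirt2, Sirt4 and Sirt7 fell, and Sirt3, Sirt5 and Sirt6 did not pass the test. The largest change was the fall of Sirt7 by 1.77-fold, and the rise of Sirt1 was 1.46-fold. An adjusted p below 0.05 in edgeR's quasi-likelihood test (Benjamini-Hochberg over all tested genes) is a call here. The 4 called members make up 57.1% of the family, against 46.4% of all tested genes. By direction, 1 of 7 was higher and 3 of 7 were lower, where 22.9% of all tested genes were higher and 23.5% lower. The share of members called is thus near that of any gene in this comparison, and what the family shows is which members moved and which way. The 2 groups of libraries did not overlap in 4 of 7 members, and in 71.3% of all tested genes.

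The promoters of the 4 called members are shown first, because letters that match known factor motifs recur between some of them. Promoter windows run from 250 bases before to 50 after a start and are RefSeq's (GRCm38.p6, the assembly that mm10 names). They matched all 7 genes by symbol, in 9 windows. Stretches are printed 5′ to 3′ on the gene's strand. Those of Sirt1, Sirt2 and Sirt7 are trimmed to bases that no GENCODE transcript counts as UTR. Sirt4 is printed as 2 short runs around the matches, which were not checked for UTR bases. The motifs were chosen after the sequences had been read, and a match is only a description of the letters. Capitals mark the E-box CACGTG in Sirt1 (MYC and clock factors bind such sites). In Sirt2 and Sirt4 they mark a 12-base pattern of the factor ZNF143, on either strand. In Sirt7 they mark the ETS-type core CCGGAAG and the NRF1-type GCGCATGCG.
Sirt1, chr10:63339051-63339285, minus strand: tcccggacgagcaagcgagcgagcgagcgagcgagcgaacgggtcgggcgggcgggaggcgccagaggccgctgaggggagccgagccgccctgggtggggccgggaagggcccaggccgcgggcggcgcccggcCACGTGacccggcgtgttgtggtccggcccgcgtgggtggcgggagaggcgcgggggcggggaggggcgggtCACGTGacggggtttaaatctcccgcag
Sirt2, chr7:28766641-28766734, plus strand: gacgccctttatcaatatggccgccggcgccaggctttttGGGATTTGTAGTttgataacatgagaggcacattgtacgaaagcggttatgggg
Sirt4, chr5:115484416-115484439, minus strand: gattctGGGACTTGTAGTtttctt
Sirt4, chr5:115484377-115484400, minus strand: tcgcggACTACATTTCCCaagatg
Sirt7, chr11:120625015-120625116, minus strand: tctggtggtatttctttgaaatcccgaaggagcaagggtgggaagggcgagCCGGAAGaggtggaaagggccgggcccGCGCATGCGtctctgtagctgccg
Sirt1 was the only member with an E-box in its window, and it had 2. Of 32851 windows genome-wide, 7.15% hold at least 1 CACGTG and 0.594% at least 2. The windows of Sirt2 and Sirt4 each held 2 matches to the ZNF143 pattern, which 1.81% of all windows hold at least once and 0.244% at least 2 times. That of Sirt7, which fell as Sirt2 and Sirt4 did, held 0. The second Sirt2 match lies downstream of the printed stretch, and so does a second CCGGAAG match in the Sirt7 window. GCGCATGCG was in the windows of Sirt6 and Sirt7 (1.75% of all windows), and CCGGAAG in those of Sirt3, Sirt6 and Sirt7 (8.86%). The Sirt5 window held none of the 4 motifs. The printed stretches of Sirt1, Sirt4 and Sirt7 lie inside the deposited intervals of these genes, which run further upstream than the RefSeq starts. That of Sirt2 lies outside the Sirt2 interval but inside that of its neighbour Nfkbib, on the opposite strand.

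Among the nuclear members, Sirt1 (ENSMUSG00000020063.16, chromosome 10, 63319005 to 63381704, minus strand, mm10) encodes the deacetylase of histones, p53 and FOXO factors. It had 827 and 649 reads in the untreated libraries and 949 and 996 in the BML-210 libraries. As CPM (counts per 1000000 counts of the library, scaled by TMM), these were 50.3 and 47.3 against 71.8 and 71.1. Both BML-210 libraries were above both untreated ones, with a gap far wider than the spread within either group. The means were 48.8 ± 2.16 and 71.5 ± 0.538 CPM (SD, n = 2). In edgeR this was 0.55 ± 0.06 (SE) on the log2 scale, with an adjusted p of 1.18e-11.

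Sirt7 (ENSMUSG00000025138.14, chromosome 11, 120618372 to 120625240, minus strand) encodes a nucleolar enzyme that acts on histone H3 acetylated at lysine 18 and on ribosomal DNA transcription. Its reads numbered 517 and 427 in untreated cells and 212 and 270 with BML-210, or 31.5 and 31.1 against 16.05 and 19.3 CPM. The groups did not overlap, and the BML-210 libraries were further apart from each other than the untreated pair. The mean fell from 31.3 ± 0.257 to 17.7 ± 2.28 CPM (SD, n = 2). In edgeR this was -0.82 ± 0.10 (SE) on the log2 scale, with an adjusted p of 1.16e-10. Of all tested genes, 5.97% were called lower with a log2 change of -0.8 or less.

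Sirt6 (ENSMUSG00000034748.16, chromosome 10, 81621785 to 81627797, minus strand) encodes a chromatin deacetylase with roles in telomere upkeep and in holding down glycolytic genes. It had 25.5 and 22.7 CPM in untreated cells and 23.8 and 27.8 CPM with BML-210. The groups overlapped. The log2 change was 0.09, with a 95% interval from -0.09 to 0.28, and did not pass (edgeR adjusted p = 0.438). That interval leaves out changes as large as the rise of Sirt1 or the falls of Sirt2, Sirt4 and Sirt7. It rests on the spread between these libraries, which may be technical, so it does not cover differences between separate cultures.

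Sirt2 (ENSMUSG00000015149.14, chromosome 7, 28766735 to 28788661, plus strand), the cytosolic enzyme that deacetylates tubulin and, in mitosis, histone H4 at lysine 16, was the member with the most reads. It had 1665 and 1377 reads in untreated cells and 1109 and 1092 with BML-210, or 101.3 and 100.3 against 83.9 and 77.9 CPM. All untreated values were above all BML-210 values. The fall was modest, from 100.8 ± 0.733 to 80.9 ± 4.26 CPM (SD, n = 2). In edgeR this was -0.32 ± 0.05 (SE) on the log2 scale, with an adjusted p of 3.53e-07.

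Of the mitochondrial members only Sirt4 was called. Sirt4 (ENSMUSG00000029524.16, chromosome 5, 115478010 to 115484725, minus strand) encodes a lipoamidase and ADP-ribosyltransferase that restrains glutamate dehydrogenase and pyruvate dehydrogenase. It had 138 and 130 reads against 74 and 68, or 8.40 and 9.47 against 5.601 and 4.85 CPM. The groups did not overlap at this low level. The mean went from 8.93 ± 0.757 to 5.23 ± 0.530 CPM (SD, n = 2). In edgeR this was -0.77 ± 0.17 (SE) on the log2 scale, with an adjusted p of 0.000175.

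Sirt3 (ENSMUSG00000025486.17, chromosome 7, 140863666 to 140882309, minus strand), the main mitochondrial deacetylase, was the rarest member, with 84 and 56 reads against 56 and 66. In CPM it stood at 5.11 and 4.08 in untreated cells and 4.24 and 4.71 with BML-210, so the groups overlapped. Its log2 change was -0.05, with a 95% interval from -0.48 to 0.38 (edgeR adjusted p = 0.88), wide enough to hold a change of the size seen for Sirt2. Sirt5 (ENSMUSG00000054021.6, chromosome 13, 43365496 to 43395203, plus strand), the desuccinylase of the family, had 13.9 and 11.6 CPM against 11.2 and 11.8 CPM. Its groups overlapped too, and the log2 change of -0.16 (95% interval -0.42 to 0.11) did not pass (edgeR adjusted p = 0.345). The intervals of both genes thus hold a fall of the size of that in Sirt2, which these libraries could not tell from no change.

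**Figure D1:**
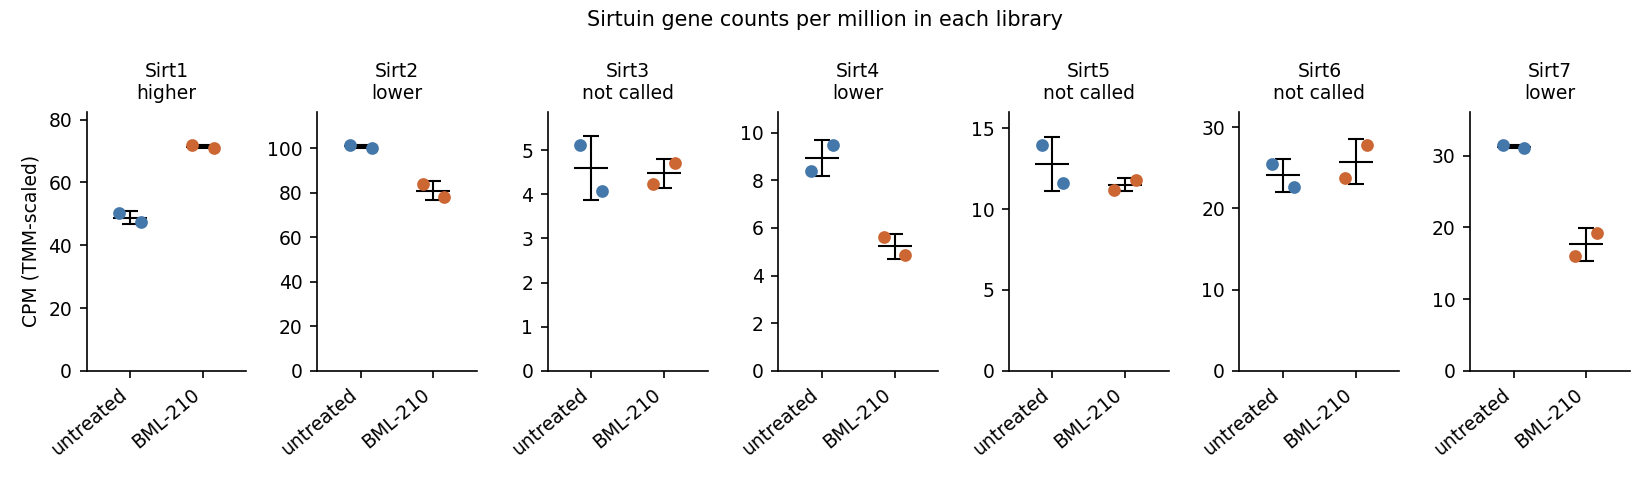
Each panel plots the CPM (vertical axis from 0, TMM-scaled) of one sirtuin gene in the 2 untreated libraries (blue points) and the 2 BML-210 libraries (orange points), with the mean as a bar and the SD as whiskers. The groups are apart in Sirt1, Sirt2, Sirt4 and Sirt7 and overlap in Sirt3, Sirt5 and Sirt6.

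**Figure D2:**
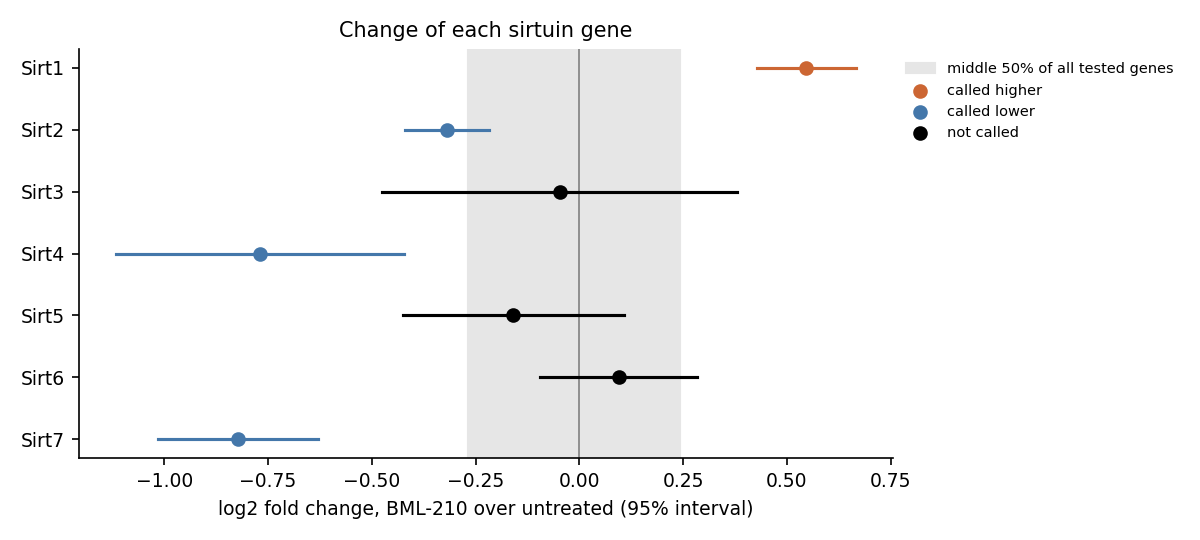
Points are the log2 changes of BML-210 over untreated for the 7 genes with 95% intervals, coloured by call, and the grey band holds the middle 50% of all tested genes (-0.27 to 0.24). Sirt1 lies above the band at 0.55, Sirt4 and Sirt7 lie well below it at -0.77 and -0.82, and Sirt2 lies just below its lower edge.

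The calls of the 4 members and the lack of one for the other 3 held under all 14 alternatives run, each library left out in turn included. The log2 change of Sirt1 ran from 0.50 to 0.59, that of Sirt2 from -0.37 to -0.26, that of Sirt4 from -0.88 to -0.67 and that of Sirt7 from -0.96 to -0.70. The adjusted p was at most 3.13e-08 for Sirt1, 0.000337 for Sirt2, 0.0136 for Sirt4 and 2.35e-07 for Sirt7.

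Levels were compared between the genes only per length, as CPM divided by the exonic length in kilobases (RPKM). Sirt2 was the most abundant sirtuin message in all 4 libraries, at 20.1 and 19.9 RPKM in untreated cells and 16.7 and 15.5 RPKM with BML-210. Sirt1 and Sirt6 came next in untreated cells, at 9.15 ± 0.406 and 8.65 ± 0.723 RPKM (SD, n = 2), levels that overlapped. With BML-210 the level of Sirt1 stood clear of that of Sirt6, at 13.4 ± 0.101 against 9.25 ± 1.01 RPKM. Sirt7 followed at 6.08 ± 0.04995 RPKM in untreated cells and 3.43 ± 0.442 with BML-210. Sirt4 had 3.73 ± 0.316 and 2.18 ± 0.221 RPKM, Sirt5 2.09 ± 0.273 and 1.89 ± 0.0663, and Sirt3 0.769 ± 0.122 and 0.749 ± 0.0557 (SD, n = 2 each). With BML-210 the Sirt4 and Sirt5 levels lay close to each other, with 2.02 RPKM as the lower Sirt4 library and 1.93 as the higher Sirt5 library. This order depends on the length used: with the longest coding transcript of each gene in place of all its exons, an alternative chosen after the data were seen, Sirt7 took position 2 in untreated cells at 18.1 RPKM and Sirt1 position 4 at 11.02, and Sirt5 stood above Sirt4. Sirt2 was in position 1, Sirt6 in position 3 and Sirt3 last either way, and the change of a gene between groups does not depend on its length.

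In the make-up of the family, the shares of Sirt7, Sirt4 and Sirt2 were lower with BML-210 and those of Sirt1 and Sirt6 higher, with no overlap between the groups. In CPM, 71.3% of all tested genes did not overlap either. The shares of a library are tied to each other, so a share can rise only because others fall. Sirt1 was 18.3% and 17.9% of the summed RPKM of the 7 genes in untreated cells and 28.9% and 28.2% with BML-210. Sirt7 went from 11.9% and 12.2% to 6.68% and 7.92%, and Sirt2 from 39.1% and 40.2% to 35.7% and 32.7%. Sirt6, whose own level was not called, went from 17.8% and 16.4% to 18.3% and 21.1%, and Sirt4 from 6.80% and 7.98% to 5.004% and 4.28%. The 3 mitochondrial members together made up 12.9% and 13.2% of the sum in untreated cells and 10.5% and 10.0% with BML-210. The sum itself was 51.5 and 49.5 RPKM in untreated cells and 46.7 and 47.3 with BML-210, or 6.96% lower on average. These values depend on the length used as well. With the longest coding transcript of each gene, the sum went from 102.6 to 88.6 RPKM, or 13.6% lower. Sirt1 then held 10.9% and 10.6% of the sum in untreated cells and 18.4% and 17.99% with BML-210, and Sirt7 17.4% and 17.9% against 10.5% and 12.5%. The shares of all 5 genes kept their direction with no overlap. With 2 libraries against 2, an exact permutation test of any of these single values cannot give a two-sided p below 0.333, so none was run.

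**Figure D3:**
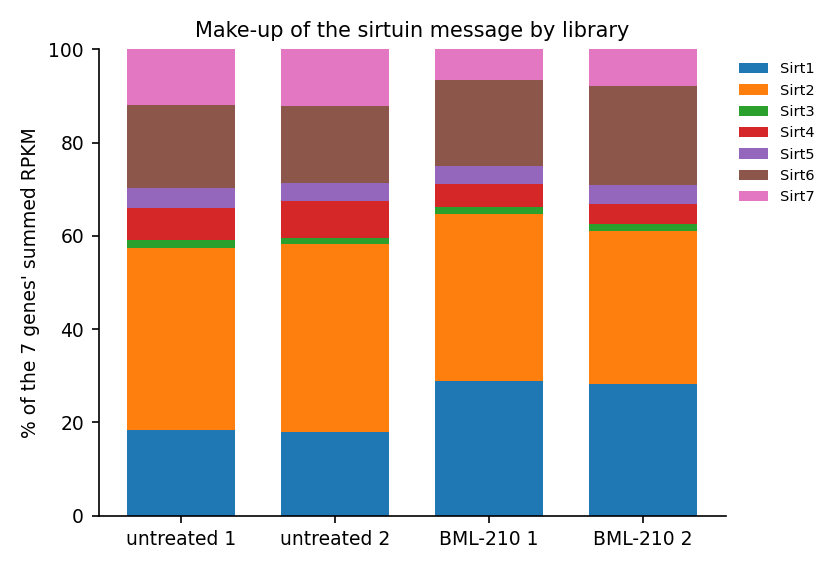
Stacked bars give the percentage (0 to 100) of the summed RPKM of the 7 genes that each gene holds, 1 bar per library. The Sirt1 segment grows from 18.3% and 17.9% in the untreated libraries to 28.9% and 28.2% in the BML-210 libraries, and the Sirt7 segment shrinks.

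Ratios of raw counts within a library need neither scaling nor length. There were 0.497 and 0.471 Sirt1 reads per Sirt2 read in the untreated libraries and 0.856 and 0.912 in the BML-210 libraries. Sirt7 had 1.23 and 1.37 reads per Sirt6 read in untreated cells and 0.675 and 0.694 with BML-210. Neither ratio overlapped between the groups. For the low-count pair Sirt4 and Sirt5 the ratio was 0.603 and 0.818 against 0.5 and 0.412, also without overlap but with a wider spread.

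Of the 13 tested genes within 5 kb of a sirtuin gene, 3 were called, all lower: Herc4, Psmd13 and Pla2g1b. Of all tested genes, 46.4% were called and 23.5% were lower. Sirt1 lies 1127 bases from Herc4, a ubiquitin ligase gene, which fell (log2 change -0.29, edgeR adjusted p = 7.17e-07) while Sirt1 rose. Dnajc12, a co-chaperone gene 739 bases away on the other side, had a log2 change of -0.26 and did not pass (edgeR adjusted p = 0.356). Sirt7 overlaps Mafg, which encodes a small MAF transcription factor on the same strand, by 124 bases or 2.4% of its exonic length. Mafg went from 110 ± 4.72 to 118 ± 6.77 CPM (SD, n = 2; log2 difference 0.10, edgeR adjusted p = 0.0691), opposite in sign to Sirt7. Mafg was called higher with library size only (adjusted p = 0.0352) and when either untreated replicate 1 (0.0257) or BML-210 replicate 1 (0.0261) was left out, over a range of 0.0257 to 0.636. Pcyt2, a phospholipid synthesis gene 436 bases from the other end of Sirt7, had 14.1 ± 1.46 and 14.1 ± 0.639 CPM (SD, n = 2).

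Sirt2 shares 42 exonic bases with Nfkbib, an NF-kappaB inhibitor gene on the opposite strand, which did not pass (log2 change -0.07, edgeR adjusted p = 0.405), nor did Rinl 308 bases downstream (0.27, edgeR adjusted p = 0.346). Sirt3 lies between Ric8a and the proteasome gene Psmd13, both on the opposite strand, and 7.0% and 5.7% of the Sirt3 exonic length is shared with them. Psmd13 fell (log2 change -0.30, edgeR adjusted p = 0.00448), a call that ended without BML-210 replicate 2 (adjusted p = 0.0589) and in DESeq2 (0.0846), over a range of 0.00176 to 0.0846. Ric8a did not pass (0.12, edgeR adjusted p = 0.364). The handling of reads in overlapping exons is not stated in the sources, and Sirt3 has the largest such overlap of the 7, so its count is uncertain. Beside Sirt4, the low-count phospholipase gene Pla2g1b was lower (21 and 24 reads against 9 and 11, log2 change -1.02, edgeR adjusted p = 0.0452), a call lost without any one of the 4 libraries (adjusted p = 0.0782 to 0.326). The Pla2g1b call was also lost with all libraries in DESeq2 (adjusted p = 0.25), in limma-voom (0.0581) and in edgeR with no filter (0.0969). It held in 7 of the 14 alternatives. Gm24265 (-0.15) near Sirt4, Nol7 (0.14) near Sirt5, and Ankrd24 (0.05) and BC025920 (-0.06) near Sirt6 did not pass. Nol7 was called higher in 4 alternatives, among them without untreated replicate 1 (adjusted p = 0.0246) and without BML-210 replicate 2 (0.016), over a range of 0.016 to 0.599. Gm24265 was called lower when either untreated replicate 1 (4.60e-06) or BML-210 replicate 1 (1.74e-06) was left out, over a range of 1.74e-06 to 0.948.

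**Figure D4:**
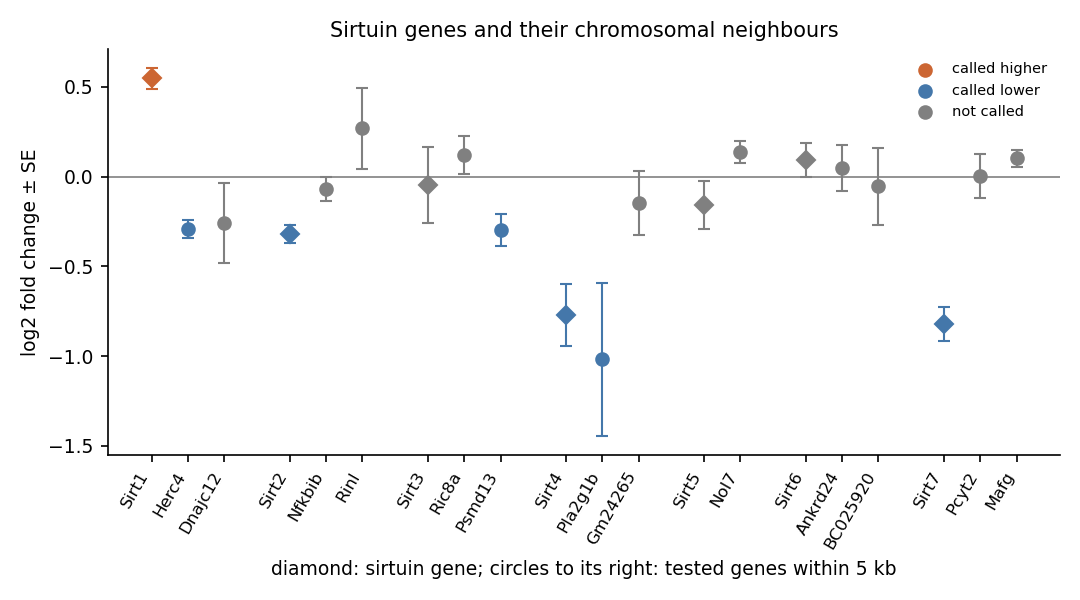
Log2 changes of BML-210 over untreated (vertical axis, whiskers are the SE) for each sirtuin gene (diamond) and the tested genes within 5 kb of it (circles to its right), coloured by call. Sirt1 at 0.55 stands apart from Herc4 at -0.29, and Sirt7 at -0.82 from Pcyt2 and Mafg.

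Of 20 genes of NAD synthesis and supply, 12 had enough reads to test, of which 3 were higher, 3 lower and 6 did not pass. The list also holds the NAD kinase genes Nadk and Nadk2, whose products turn NAD into NADP, and the transhydrogenase gene Nnt. The share called, 50%, was near the 46.4% of all tested genes (median log2 change -0.03, against -0.00 over all tested genes, and 0.09 without BML-210 replicate 1). Qprt and Kynu, of the route that makes NAD from tryptophan, had no read in any library. The route was not silent throughout: its gene Afmid had 168 and 139 reads in untreated cells and 109 and 128 with BML-210. Afmid did not pass (log2 change -0.23, edgeR adjusted p = 0.215). Nampt, the rate-limiting enzyme of NAD salvage from nicotinamide, rose slightly from 236 ± 12.4 to 266 ± 6.32 CPM (SD, n = 2; log2 difference 0.17, edgeR adjusted p = 9.96e-05), and the NAD kinase gene Nadk rose by 0.28 (edgeR adjusted p = 1.55e-07). Nmrk1, which phosphorylates nicotinamide riboside, fell from 7.68 ± 0.364 to 4.40 ± 0.232 CPM (SD, n = 2; log2 difference -0.80, edgeR adjusted p = 0.000278). The mitochondrial NAD kinase gene Nadk2 was lower too (-0.70, edgeR adjusted p = 0.00828), a call not held in DESeq2 (adjusted p = 0.11; 0.00413 to 0.11 in all alternatives).

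Of 18 tested genes in the list of other NAD-consuming enzymes, 7 were higher and 4 lower (median log2 change 0.07, 61.1% called against 46.4% of all tested genes). The list also holds Nnmt, a nicotinamide methyltransferase gene whose product does not itself consume NAD, and which was not called. Parp8 rose from 50.9 ± 2.61 to 100.2 ± 3.35 CPM (SD, n = 2; log2 difference 0.97, edgeR adjusted p = 1.61e-22), and Parp14 (0.82, edgeR adjusted p = 5.27e-09) and Parp9 (0.86, edgeR adjusted p = 2.72e-07) rose as well. These encode ADP-ribosyltransferases, and the last 2 are known as interferon-responsive genes. Parp16, the endoplasmic reticulum member, fell (-0.51, edgeR adjusted p = 4.67e-09), as did Sarm1, the NAD hydrolase of axon degeneration, from 3.91 ± 0.543 to 1.29 ± 0.418 CPM (SD, n = 2; edgeR adjusted p = 1.21e-05). Parp1, the main nuclear consumer of NAD, was at 134.7 and 126 CPM against 114 and 112 CPM (log2 change -0.21, edgeR adjusted p = 6.66e-05).

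Among 11 tested regulators of sirtuins, 2 were higher and 4 lower (median log2 change -0.08), so 54.5% were called, near the 46.4% of all tested genes. Usp22, the deubiquitinase of the SAGA complex that is known to stabilise the SIRT1 protein, fell from 271 ± 3.84 to 189 ± 0.255 CPM (SD, n = 2; log2 difference -0.52, edgeR adjusted p = 6.33e-19). Ppargc1a, the coactivator of mitochondrial genes that SIRT1 deacetylates, fell from 68 and 45 reads to 4 and 5 (log2 change -3.46, edgeR adjusted p = 2.05e-10), close to the level of 3 reads in a library. Lmna, the lamin A gene, was lower (-0.21, edgeR adjusted p = 0.007), though not in DESeq2 (adjusted p = 0.134, with a range of 7.06e-12 to 0.134). The small rises of Ctbp1 (0.15, edgeR adjusted p = 0.0174) and Foxo3 (0.10, edgeR adjusted p = 0.041) were lost without untreated replicate 1 (adjusted p = 0.281 and 0.429) and without BML-210 replicate 2 (0.349 and 0.272), and with upper-quartile scaling (0.0579 and 0.15), and that of Foxo3 also without BML-210 replicate 1 (0.0732). The adjusted p ran from 0.0038 to 0.349 for Ctbp1 and from 0.00907 to 0.429 for Foxo3. The Ctbp1 and Foxo3 calls were also lost in DESeq2 (adjusted p = 0.171 and 0.231). That of Foxo3 was lost as well with no filter (edgeR adjusted p = 0.0595) and with the 1 CPM filter (0.0503). The SIRT1 inhibitor gene Ccar2 (-0.08, edgeR adjusted p = 0.39) and the SIRT1 activator gene Rps19bp1 (0.09, edgeR adjusted p = 0.483) did not pass.

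Genes of known nuclear and cytosolic sirtuin substrates were called in both directions: of 24 tested, 12 were higher and 5 lower (median log2 change 0.13), so 70.8% were called against 46.4% of all tested genes. Trp53, whose product p53 is a classic SIRT1 substrate, rose from 147 ± 1.59 to 237 ± 3.01 CPM (SD, n = 2; log2 difference 0.69, edgeR adjusted p = 3.96e-23). The spindle checkpoint gene Bub1b, whose product SIRT2 is known to stabilise, rose by 0.61 (edgeR adjusted p = 7.52e-14). Acss2, the cytosolic acetyl-CoA synthetase that SIRT1 activates, fell from 41.1 ± 0.145 to 13.8 ± 0.161 CPM (SD, n = 2; log2 difference -1.57, edgeR adjusted p = 6.19e-22), and Pkm, a glycolytic enzyme, fell by 0.43 (edgeR adjusted p = 2.84e-20). Foxo3, Ppargc1a and Parp1 belong to this list and to one above.

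Of 21 tested genes of mitochondrial substrates, 8 were lower and 4 higher (median log2 change -0.04), so 57.1% were called against 46.4% of all tested genes, of which 23.5% were lower and 22.9% higher. Mccc1, a leucine breakdown enzyme whose complex SIRT4 acts on, fell from 38.7 ± 2.18 to 24.4 ± 2.67 CPM (SD, n = 2; log2 difference -0.66, edgeR adjusted p = 1.32e-09), and the adenine nucleotide carrier gene Slc25a4 fell by 0.34 (edgeR adjusted p = 9.24e-09). Shmt2, the mitochondrial serine enzyme and a SIRT5 substrate, rose from 292 ± 3.85 to 417 ± 4.28 CPM (SD, n = 2; log2 difference 0.51, edgeR adjusted p = 4.27e-21), and the protease gene Lonp1 rose by 0.22 (edgeR adjusted p = 1.11e-06). Glud1, the glutamate dehydrogenase that SIRT4 restrains, was slightly higher, at 974.9 and 916.3 CPM against 1020 and 1018 (log2 change 0.11, edgeR adjusted p = 0.00119). Without BML-210 replicate 2 the number lower in this list was 5.

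**Figure D5:**
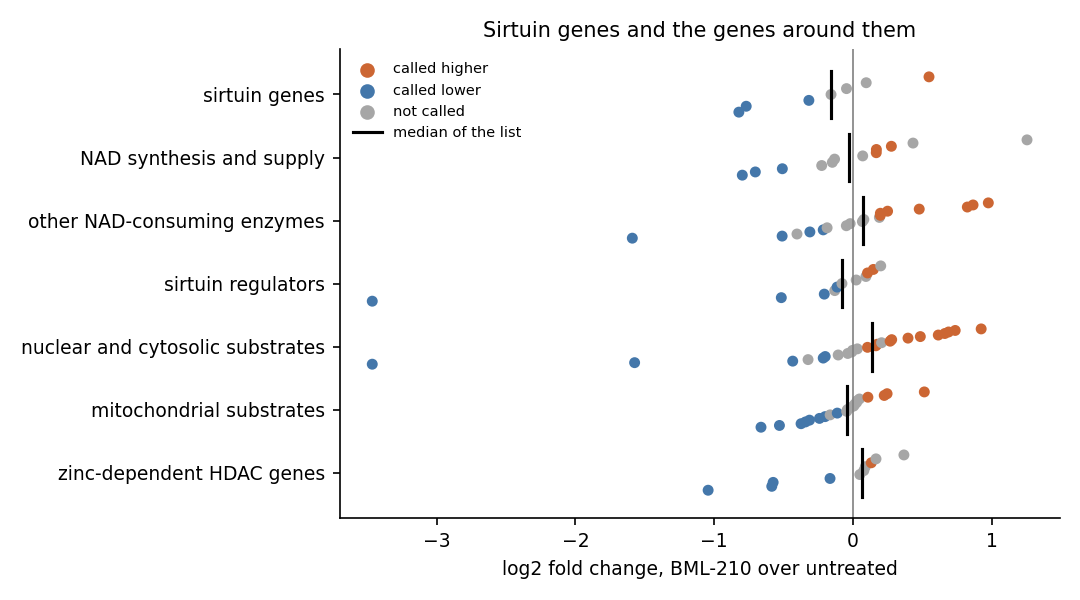
Each point is the log2 change of one tested gene (horizontal axis, BML-210 over untreated), in rows for the 7 sirtuin genes, the 5 lists around them and the zinc-dependent HDAC genes, coloured by call, with the median of each row as a black bar. The medians lie between -0.16 for the sirtuin genes and 0.13 for the nuclear and cytosolic substrates, and the far-left point in 2 rows is Ppargc1a at -3.46.

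The zinc-dependent HDAC genes, the family the compound does inhibit, were counted beside them: of 10 tested, 1 was higher, 4 lower and 5 did not pass, so 50% were called, near the 46.4% of all tested genes. Their median log2 change was 0.06, against -0.16 for the sirtuin genes. Hdac11 (-1.04), Hdac6 (-0.59) and Hdac5 (-0.58) were the called genes with the largest change. The 1 higher gene was Hdac7 (0.13, edgeR adjusted p = 0.0208). The number higher was 0 without BML-210 replicate 1 and 2 without untreated replicate 2. Whether the 2 families differ was not tested.

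For each member, the genes whose profile over the 4 libraries was most like its own were found by the root mean square difference in log2 CPM, centred per gene, among 6895 genes with a mean of at least 20 CPM. For Sirt1 they were Eml4 (0.00465) and Mtfr1 (0.00564), for Sirt2 Mms19 (0.00437) and Ezr (0.00646), for Sirt4 Tuba1a (0.0158) and Neu1 (0.0189), and for Sirt7 Tmeff1 (0.0203) and Dennd3 (0.0301). For the members not called they were Rdh11 and Snrpe for Sirt3 (0.0363 and 0.0407), Usb1 and Tbc1d22b for Sirt5 (0.0134 and 0.0216), and Mrpl58 and Fam118b for Sirt6 (0.0234 and 0.0250). With only 4 libraries and so many candidates, close matches are to be had for almost any profile.

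Counts summed to between 13167893 and 16534667 per library. As to the cells, the mesenchymal gene Vim was at 1645 to 1721 CPM and the keratin gene Krt8 at 28.3 to 49.2 CPM, while Epcam, Krt18, Cldn3, Cldn4 and Cldn7 had at most 3 reads in any library, so the label of a mammary carcinoma line rests on few of its 10 epithelial and carcinoma markers here. The 13 haematopoietic markers summed to 12.5 to 15.1 CPM in untreated and 10.4 to 12.9 CPM in BML-210 libraries, with C1qc at 0 throughout, and 1 of the 4 tested (Adgre1) was lower. The 5 endothelial markers summed to 6.19 to 7.55 and 7.56 to 8.55 CPM, with Emcn at 0. In bulk RNA, fewer cells with a message and less message per cell cannot be told apart. The non-coding Gm26917 took 5.52% and 6.41% of counts in untreated libraries and 4.04% and 4.45% in the others, and with the genes above 1% of a library left out the same 4 sirtuin genes were called. Of the 4 tested epithelial and carcinoma markers, Krt8 and Esr1 were lower with BML-210, and the part of any marker list in the sirtuin values was not tested.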

How the data were processed

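Total RNA of 4 EO771 samples was sequenced as paired reads from KAPA RNA HyperPrep libraries, per the labels' protocols. The deposited values are raw gene counts in 1 table, with coordinates and exonic length (another deposited value, in bases), per the file headers. The submitters' processing notes name bcl2fastq, STAR 2.5, featureCounts of Subread 1.5.1, edgeR 3.20.8 and build mm10. No source used here states the settings for strand, multi-mapping or overlaps.

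The test was run in edgeR 4.0.16 (R 4.3.3): filterByExpr (14455 of 56350 genes kept, 23739 without a read), TMM, and a robust quasi-likelihood test of the group alone, with Benjamini-Hochberg adjustment over the whole tested table. The SE is the log2 fold change over the root of F, and intervals (95%) use it. Replicates were more different than counting noise alone gives (chi-square per degree of freedom 2.70 untreated, 1.76 BML-210). The spread beyond counting noise was still small, with a common coefficient of variation of 2.49% in edgeR. Whether it holds any spread between separate cultures cannot be told from the labels. A count of 3 equals 0.183 to 0.227 CPM; such floors cover counting error only. On simulated data for 2 against 2 (14159 genes), 75% of 100 genes changed by 1 log2 unit and 56.1% of 98 changed by 0.5 were recovered, with 3 false among 133 calls. Far fewer genes were changed there than the 46.4% of tested genes called in these data. The adjustment for many tests acts differently in that setting, so recovery and false share here may differ.

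The members and lists were chosen with earlier results of these data known. Named are all members, up to 4 genes with the smallest adjusted p per list plus up to 2 against its direction, the 3 called HDAC genes of largest change, neighbours within 5 kb and the 2 most alike profiles. Chosen outside this rule after values were seen were Qprt, Kynu, Afmid, Nnt, Parp1, Nnmt, Ccar2, Rps19bp1, Glud1, Hdac7, the markers and Gm26917. Alternatives were RLE, upper-quartile or no scaling factors, no filter or 1 CPM, a replicate block, each library left out, no abundant genes, voom (limma 3.58.1), DESeq2 1.42.0 and the likelihood ratio test of edgeR. The planned description of member proteins was not made, as no protein table was used here.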

Additional observations from a re-analysis of the deposited data

How the results depend on the processing

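The 4 sirtuin calls (Sirt1 higher; Sirt2, Sirt4 and Sirt7 lower) held in all 14 alternatives. The uncalled members were called in none, but their signs were less firm: with each library left out, the log2 fold change ran from -0.19 to 0.13 for Sirt3 and from -0.024 to 0.20 for Sirt6. The labels do not say whether same-numbered libraries of the 2 groups were handled together. Their deviations had a correlation of 0.0155 across genes, so no shared shift was seen, which cannot settle the pairing. With the replicate number as a block 6847 genes were called instead of 6714, and the same 4 members with the same signs (Sirt1 0.55, Sirt2 -0.32, Sirt4 -0.77, Sirt7 -0.83). Among the members, the neighbours and the list genes named by rule, no call ended under the block. Nol7 passed under it (0.14, edgeR adjusted p = 0.0395). The calls of Parp1, Glud1, Hdac7 and the markers were not followed gene by gene through the alternatives. DESeq2 called fewer genes overall (4335, of which 2205 higher and 2130 lower), and in its fit the lower genes were 1 for NAD synthesis and supply, 2 for sirtuin regulators and 5 for mitochondrial substrates, with 0 higher regulators and 0 higher zinc-dependent HDAC genes. The cause was not tested. The number of higher regulators was 0 with upper-quartile scaling, 1 with no filter, 1 with the 1 CPM filter, and 0 to 2 with a library left out. Higher zinc-dependent HDAC genes numbered 0 with upper-quartile scaling and 0 to 2 with a library left out. Lower mitochondrial substrates numbered 5 to 7 with a library left out. The median of NAD synthesis and supply was -0.14 with no filter, -0.14 with the 1 CPM filter (other genes enter), and -0.08 to 0.09 with a library left out. With the longest coding transcript as length, Sirt1 took position 4 and Sirt7 position 2 in untreated cells, Sirt4 and Sirt5 positions 6 and 5 in both groups, and the family sum was 102.6 RPKM in untreated and 88.6 in BML-210 libraries. Among uncalled neighbours, signs turned for Pcyt2 with upper-quartile scaling (-0.027) and the 1 CPM filter (-0.0042), and with a library left out values ran from -0.11 to 0.10 for Pcyt2, -0.11 to 0.24 for Ankrd24, -0.26 to 0.21 for BC025920 and -0.32 to 0.0066 for Gm24265. Depth limits Sirt3, Sirt4 and Sirt5 most, with 56 to 229 reads per library.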
